A study of Mus musculus with 10 samples.

Results

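Globin and erythroid transcripts were measured in RNA of the trigeminal ganglion, which houses sensory neurons serving the face, and they are described as a measure of blood RNA in each library and of the shares of embryonic and adult globins in it. The set has 9 genes taken by their Ensembl IDs out of 55414 in the files: the embryonic globins Hbb-y, Hbb-bh1 and Hba-x, the adult globins Hba-a1, Hba-a2, Hbb-bs and Hbb-bt, the heme enzyme gene Alas2 and the red cell membrane gene Slc4a1. All 9 had counts in each of the 10 libraries and all 9 passed the filter on low counts, with 18005 genes tested in all. The tissue came from mouse embryos of strain C57Bl6 at E13.5. In 5 libraries the genotype was Prdm12-/- with Sox10 Venus+ (knockout 16, 29, 42, 49 and 50), and in 5 it was Prdm12+/+ with Sox10 Venus+ (wild type 22, 24, 32, 35 and 45). Prdm12 encodes a zinc finger protein needed for nociceptor development, and the Sox10 Venus+ label was shared by every library. The labels name no cell sorting, no perfusion and no number of embryos per library. Values between libraries may therefore differ in part for technical reasons, and p-values measure only the spread between these libraries. The titles begin with a different letter in each genotype, and any handling difference behind that letter cannot be told apart from genotype.

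The globin genes lie in 2 clusters, the beta-like genes on chromosome 7 and the alpha-like genes on chromosome 11. Hemoglobin is a tetramer of alpha-like and beta-like chains around heme. The first red cells of the mouse embryo, the primitive cells made in the yolk sac, use the zeta chain (Hba-x) with the beta H1 and epsilon-y chains (Hbb-bh1 and Hbb-y), and they change from Hbb-bh1 to Hbb-y and from Hba-x to Hba-a1 and Hba-a2 as they mature in the circulation. The definitive red cells made in the fetal liver use Hba-a1 and Hba-a2 with Hbb-bs and Hbb-bt, the adult beta genes of this strain. Their transcripts in a dissected tissue are commonly read as a measure of the blood it holds.

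Promoter windows of the 2 clusters are shown for 4 genes, an embryonic and an adult gene of each cluster, because the counts of these genes are set against each other below. They run from 250 bases before to 50 bases after the transcript start on the gene's strand and come from RefSeq on GRCm38.p6. Of the 9 genes, 7 matched an entry, and Hbb-bh1 and Slc4a1 did not. Capitals mark letters that fit a GATA factor site (AGATAA, where T may stand first and G last), a KLF1 site (CCNCNCCC), CCAAT or TATAAA, on either strand. GATA1 and KLF1 are transcription factors of red cell precursors.
Hbb-y (chr7:103853158-103853457, minus strand): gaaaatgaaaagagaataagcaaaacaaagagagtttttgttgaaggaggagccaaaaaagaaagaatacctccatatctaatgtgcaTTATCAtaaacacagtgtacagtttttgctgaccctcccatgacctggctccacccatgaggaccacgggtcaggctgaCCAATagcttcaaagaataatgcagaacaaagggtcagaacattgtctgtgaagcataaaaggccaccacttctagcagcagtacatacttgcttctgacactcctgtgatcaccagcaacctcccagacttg
Hbb-bs (chr7:103827879-103828178, minus strand): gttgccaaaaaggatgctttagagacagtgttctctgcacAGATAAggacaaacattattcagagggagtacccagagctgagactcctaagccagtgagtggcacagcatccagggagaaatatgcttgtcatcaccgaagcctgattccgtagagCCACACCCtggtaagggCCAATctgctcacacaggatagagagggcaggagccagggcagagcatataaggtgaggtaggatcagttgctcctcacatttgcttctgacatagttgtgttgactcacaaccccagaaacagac
Hba-x (chr11:32276350-32276649, plus strand): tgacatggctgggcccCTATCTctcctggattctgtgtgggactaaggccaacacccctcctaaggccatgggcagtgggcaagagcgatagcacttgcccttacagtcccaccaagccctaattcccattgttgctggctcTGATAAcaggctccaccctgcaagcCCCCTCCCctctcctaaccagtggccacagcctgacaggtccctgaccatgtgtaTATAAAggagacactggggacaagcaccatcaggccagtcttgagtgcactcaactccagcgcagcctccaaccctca
Hba-a1 (chr11:32283422-32283721, plus strand): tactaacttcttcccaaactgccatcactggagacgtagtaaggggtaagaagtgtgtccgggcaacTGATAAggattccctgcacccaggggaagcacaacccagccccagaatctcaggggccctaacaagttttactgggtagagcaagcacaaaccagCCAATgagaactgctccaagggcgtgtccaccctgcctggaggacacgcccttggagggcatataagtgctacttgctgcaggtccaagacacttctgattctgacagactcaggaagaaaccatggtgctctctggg

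GATA letters were found in 6 of the 7 matched windows, against 29.8% of all 32851 promoter windows of the same length. KLF1 letters were in 4 of 7 windows (49.5% of all windows), CCAAT in 5 of 7 (37.4%) and TATAAA in 3 of 7 (13.6%). The embryonic gene Hbb-bh1 had no window to search. The letters TGACCA, known as a BCL11A site, were in 2 of 7 windows (13.6% of all), both of embryonic genes, Hbb-y and Hba-x. With the start as position 0, they began at -86 in Hbb-y, where they overlap the CCAAT letters, and at -40 in Hba-x. The NF-E2 letters TGAGTCA were in 1 of 7 windows (5.20% of all), that of Hbb-bs. The Hba-a1 and Hba-a2 windows shared an unbroken run of 297 bases, whereas the longest run shared by Hba-x and Hba-a1 was 10 bases. A match of letters is a description of the window and no evidence of binding.

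The adult genes are near-identical copies of each other, which limits how their reads can be counted. Of all 50-base stretches of the Hba-a1 transcript in GENCODE M21, 67.5% also occur in Hba-a2, and 86.9% of those of Hba-a2 occur in Hba-a1. Hbb-bs shared 65.8% of its stretches with Hbb-bt, and Hbb-bt shared 58.3% with Hbb-bs. Every stretch of Hbb-y, Hbb-bh1, Hba-x, Alas2 and Slc4a1 was found in no other gene. The read length and the treatment of reads that fit several genes are not stated in the labels. A count of an adult globin may thus miss shared reads that a count of an embryonic globin does not, so that adult shares of counts may be too low. Shares are compared between libraries on the assumption that this loss is the same in all 10, which could not be checked.

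Total counts were 3258008 in knockout 49, 13603690 in knockout 29 and 27308327 to 33556002 in the other 8 libraries. Of the 18005 genes tested, 17 were higher (0.0944%) and 67 lower (0.372%) in the knockout. Values are CPM, counts scaled to library size with TMM factors. Prdm12 was at 8.73, 42.7, 10.1, 12.1 and 17.0 CPM in knockout libraries 16, 29, 42, 49 and 50, against 148, 178, 246, 263 and 74.1 CPM in wild-type libraries 22, 24, 32, 35 and 45, and the groups did not overlap (log2 fold change -3.32, SE 0.49, adjusted p = 0.016 by edgeR). The summed level of 12 sensory neuron genes was 5882 to 14262 CPM across Prdm12-/- libraries, against 7736 to 14201 CPM across Prdm12+/+ libraries, so the tissue's own markers were present throughout. Knockout 29 held the 14262 CPM, and the other knockouts 5882 to 8918 CPM. Wild-type 32 and 35 held 13622 and 14201 CPM, and the other wild types 7736 to 9331 CPM. Knockout 29 stood apart in glial genes too: the summed level of 8 glial genes was 5072 CPM there and 1373 to 1945 CPM in the remaining 4 mutants, against 1348 to 2530 CPM in the wild type. Wild-type 32 and 35 lay at 90.9 and 78.3 on the first principal component, where no other library was above 0.177. The summed level of 9 mesenchyme genes was 748 and 1048 CPM in these 2 and 3112 to 11036 CPM in the other 8 libraries, and that of 7 pericyte genes 162 and 177 CPM against 261 to 494 CPM.

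Blood transcripts were present in every library at a low share. The 7 globins together took 0.156%, 0.322%, 0.111%, 0.124% and 0.195% of all counts in knockout 16, 29, 42, 49 and 50, against 0.161%, 0.207%, 0.0765%, 0.0576% and 0.0989% in wild-type 22, 24, 32, 35 and 45. Knockout 29 held the highest share and wild-type 35 the lowest, followed by wild-type 32, and the genotypes overlapped. These 2 are the libraries low in mesenchyme and pericyte genes, whose part in the globin share was not tested. Without them the median log2 fold change of the 9 genes was 0.33. The means were 0.182% ± 0.0849 in Prdm12-/- libraries, against 0.120% ± 0.0622 in Prdm12+/+ libraries (SD, n = 5 each), a sum to which no test was applied. Without knockout 29 the knockout mean was 0.147%. In bulk tissue, fewer red cells and less globin RNA per red cell cannot be told apart.

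No gene of the set passed the test between genotypes. With edgeR's quasi-likelihood test and Benjamini-Hochberg adjustment over all genes, 0 of 9 reached an adjusted p of 0.05, where 0.467% of all genes tested did. At an unadjusted p under 0.05 there was 1 of 9 (Hba-x), against 13.1% of all genes. limma voom called 0 of 9, where it called 97 of all 18005 genes. DESeq2 called 0 of the 8 to which it gave a p, with none for Slc4a1, where it called 637 of all 18005. The genotypes overlapped for all 9, whereas 4.21% of all genes had genotypes that did not overlap. All 9 fold changes had a positive sign, as did 46.3% of all genes, with a median log2 fold change of 0.65 against -0.03 over all genes.

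**Figure D1:**
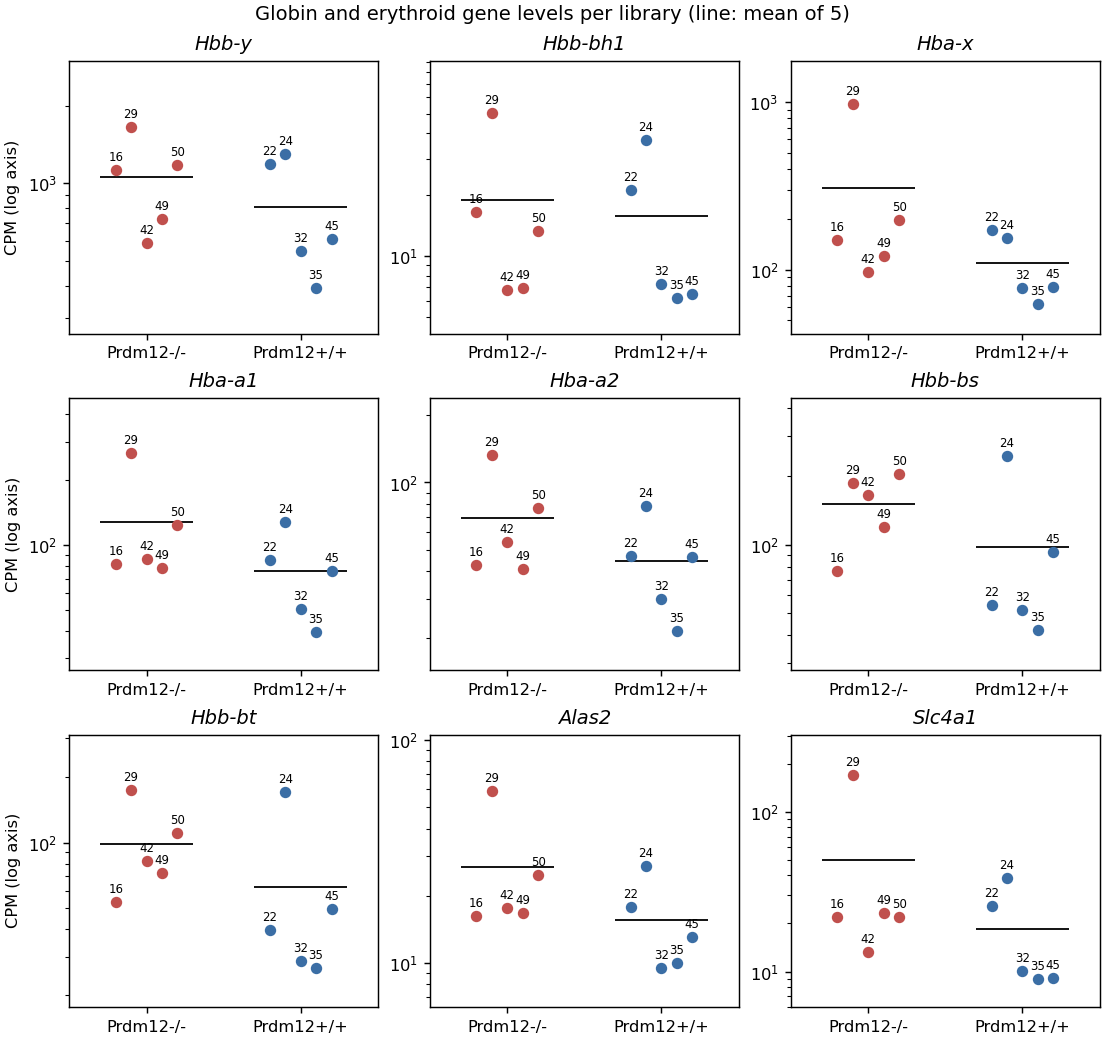
Level of each gene in CPM (log axis) in the 5 Prdm12-/- libraries (left, red) and the 5 Prdm12+/+ libraries (right, blue), labelled by replicate number, with the mean of 5 as a line. Knockout 29 is highest for 8 of the 9 genes, and in Hbb-bs wild-type 24 is highest at 246 CPM.

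Hbb-y, the epsilon-y chain of primitive red cells, was the most abundant globin. It was at 1129, 1654, 588, 727 and 1183 CPM in knockout 16, 29, 42, 49 and 50, against 1187, 1303, 546, 393 and 611 CPM in wild-type 22, 24, 32, 35 and 45. Knockout 42 and 49 and wild-type 32, 35 and 45 were low, the other 5 libraries were high, and the genotypes overlapped widely. The log2 fold change was 0.39 (SE 0.37, adjusted p = 0.663 by edgeR).

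Hba-x, the zeta chain that pairs with the embryonic beta-like chains, had the widest span of the 7 globins, with the highest library at 15.7 times the lowest. Its level was 150, 979, 97.4, 121 and 197 CPM in knockout 16, 29, 42, 49 and 50, against 172, 155, 78.2, 62.4 and 78.9 CPM in wild-type 22, 24, 32, 35 and 45. A single library, knockout 29, was 8.08 times the median of the other 9, whereas the other 4 knockout libraries lay between 97.4 and 197 CPM. The log2 fold change was 1.5 (SE 0.62, adjusted p = 0.342) and came to 0.41 without knockout 29.

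Hbb-bh1, the beta H1 chain of the earliest red cells, was the least abundant of the 7 globins. It was at 16.4, 50.3, 6.82, 6.94 and 13.3 CPM in knockout 16, 29, 42, 49 and 50, against 21.1, 37.0, 7.26, 6.24 and 6.5 CPM in wild-type 22, 24, 32, 35 and 45. Knockout 29, 16 and 50 and wild-type 22 and 24 were the higher libraries, as they were for Hbb-y, and the genotypes overlapped. The log2 fold change was 0.27 (SE 0.65, adjusted p = 0.882), and it turned to -0.47 without knockout 29.

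The adult alpha genes share most of their sequence, and their counts followed each other. Hba-a1 was at 82.0, 265, 85.8, 78.6 and 124 CPM in knockout 16, 29, 42, 49 and 50, against 85.3, 128, 50.9, 39.6 and 75.9 CPM in wild-type 22, 24, 32, 35 and 45. Hba-a2 followed at 42.6, 133, 54.0, 41.1 and 77.0 CPM in those knockout libraries, against 46.9, 78.5, 30.2, 21.6 and 46.2 CPM in the wild-type libraries. The count of Hba-a1 was 1.59 to 1.99 times that of Hba-a2 across all 10 libraries. Their log2 fold changes were 0.74 (SE 0.39, adjusted p = 0.439) and 0.64 (SE 0.39, adjusted p = 0.489).

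The adult beta genes had a different ranking of libraries. Hbb-bs was at 76.4, 186, 165, 120 and 205 CPM in knockout 16, 29, 42, 49 and 50, against 54.0, 246, 51.3, 42 and 92.9 CPM in wild-type 22, 24, 32, 35 and 45. Hbb-bt was at 53.2, 173, 82.6, 72.3 and 110 CPM in the knockout libraries, against 39.7, 170, 28.5, 26.5 and 49.5 CPM in the wild-type libraries. Wild-type 24 was far above the other wild types for both genes, while knockout 16 and wild-type 22, high for Hbb-y, were low. The log2 fold changes were 0.63 (SE 0.47, adjusted p = 0.567) for Hbb-bs and 0.65 (SE 0.51, adjusted p = 0.591) for Hbb-bt. Without wild-type 24 they were 1.38 and 1.5, still short of the threshold (adjusted p = 0.0857 and 0.0819).

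Alas2, the X-linked first enzyme of heme synthesis in red cell precursors, was at 16.2, 58.7, 17.5, 16.8 and 24.7 CPM in knockout 16, 29, 42, 49 and 50, against 17.7, 27.2, 9.51, 9.99 and 13.1 CPM in wild-type 22, 24, 32, 35 and 45. Slc4a1, the anion exchanger band 3 of the red cell membrane, was at 21.8, 170, 13.2, 23.4 and 21.8 CPM in the knockout libraries, against 25.6, 38.3, 10.1, 9.0 and 9.14 CPM in the wild-type libraries. Apart from knockout 29, every knockout library lay within the wild-type range for both genes. The log2 fold changes were 0.79 for Alas2 (SE 0.41, adjusted p = 0.432) and 1.44 for Slc4a1 (SE 0.73, adjusted p = 0.418), and without knockout 29 they were 0.32 and 0.15.

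**Figure D2:**
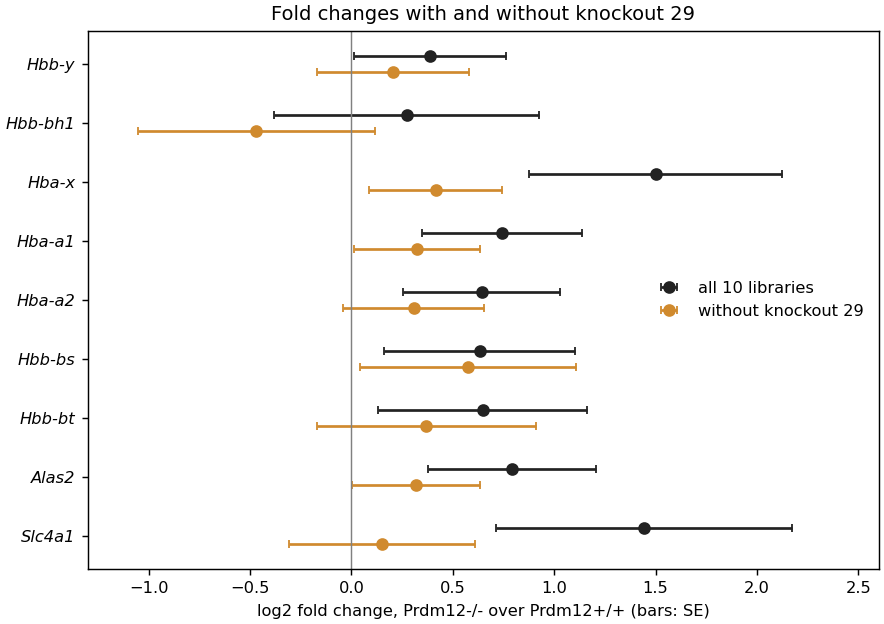
Log2 fold change of each gene, Prdm12-/- over Prdm12+/+, with its standard error, from all 10 libraries (black) and without knockout 29 (orange). Hba-x moves to 0.41 and Slc4a1 to 0.15 without that library, and Hbb-bh1 changes sign.

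Knockout 29 thus carried much of the difference in means, and unevenly across the genes. Against the median of the other 9 libraries it held 8.08 times the Hba-x, 7.78 times the Slc4a1 and 6.92 times the Hbb-bh1. For Hbb-y the ratio was 2.27, for Hbb-bs 2.0, for Hba-a2 2.88, for Hba-a1 3.23, for Hbb-bt 3.26 and for Alas2 3.50. The count of Hba-x relative to Hbb-y was 0.592 in knockout 29 and 0.132 to 0.167 in the other knockout libraries, against 0.119 to 0.159 in the wild type. Slc4a1 relative to Alas2 was at 2.89 in knockout 29 and 0.755 to 1.40 in the other knockout libraries, against 0.697 to 1.44 in the wild type. Without knockout 29 the knockout means were 141 ± 43.0 CPM for Hba-x and 20.1 ± 4.62 CPM for Slc4a1 (SD, n = 4), against 109 ± 50.2 and 18.4 ± 13.1 CPM over the 5 wild-type libraries.

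**Figure D3:**
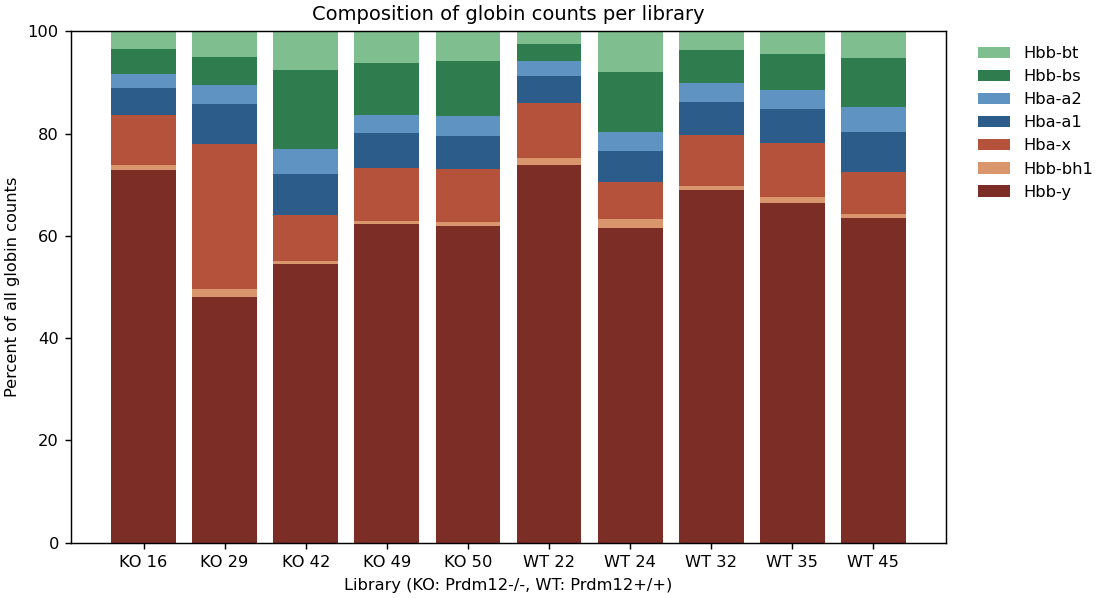
Share of each globin in all globin counts, in percent, in the 5 knockout libraries (left) and the 5 wild-type libraries (right). Hbb-y is the largest part in every library, from 48.1% in knockout 29 to 73.9% in wild-type 22, and Hba-x reaches 28.4% in knockout 29 against at most 10.7% elsewhere.

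The embryonic-to-adult balance differed more between libraries than between genotypes. Embryonic genes made up 83.6%, 78.0%, 64.1%, 73.3% and 73.0% of globin counts in knockout 16, 29, 42, 49 and 50, against 85.9%, 70.6%, 79.7%, 78.1% and 72.5% in wild-type 22, 24, 32, 35 and 45. Knockout 42 was lowest and wild-type 22 highest. In the means this was 74.4% ± 7.19 in Prdm12-/- libraries, against 77.4% ± 6.10 in Prdm12+/+ libraries (SD, n = 5 each).

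Among the beta-like genes, the adult share was 10.2%, 17.4%, 29.4%, 20.7% and 20.9% in knockout 16, 29, 42, 49 and 50, against 7.20%, 23.7%, 12.6%, 14.6% and 18.7% in wild-type 22, 24, 32, 35 and 45. The lowest depth, that of knockout 49, gave an exact binomial 95% interval of 19.4% to 22.2%, which covers counting error only and is far narrower than the spread between libraries. The mean was 19.7% ± 6.94 in Prdm12-/- libraries, against 15.4% ± 6.23 in Prdm12+/+ libraries. The log2 ratio of adult to embryonic counts differed by 0.46 (SE 0.46), with p = 0.333 in an exact two-sided permutation test whose smallest possible p is 0.00794.

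Among the alpha-like genes, the zeta share was 54.6%, 71.1%, 41.1%, 50.3% and 49.6% in knockout 16, 29, 42, 49 and 50, against 56.5%, 42.8%, 49.1%, 50.5% and 39.2% in wild-type 22, 24, 32, 35 and 45. Knockout 29 was above all others and the rest of the knockouts lay within the wild-type range. The mean was 53.3% ± 11.1 in Prdm12-/- libraries, against 47.6% ± 6.74 in Prdm12+/+ libraries, and the log2 ratio differed by 0.35 (SE 0.35, exact permutation p = 0.405). The beta H1 share of embryonic beta-like counts was small throughout, at 0.945% to 2.95% in the knockout and 1.05% to 2.76% in the wild type. Its log2 ratio differed by -0.20 (SE 0.38, exact permutation p = 0.556). Adjusted over these 3 share tests, p was 0.556 for each.

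**Figure D4:**
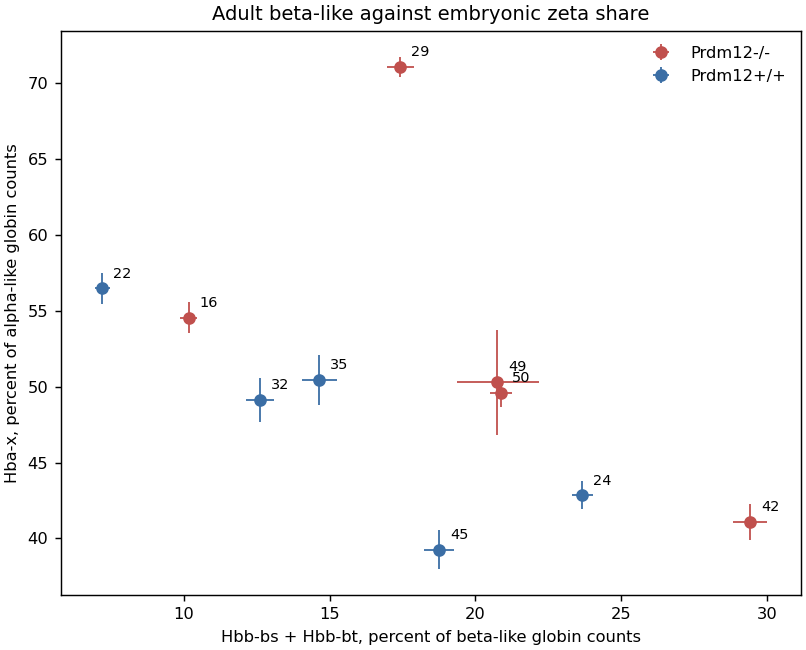
Adult share of beta-like globin counts (x axis, percent) against the zeta share of alpha-like globin counts (y axis, percent) in each library, Prdm12-/- in red and Prdm12+/+ in blue, with exact binomial 95% intervals. Libraries run from wild-type 22 and knockout 16 at the upper left to knockout 42 at the lower right, and knockout 29 lies apart at 71.1% zeta.

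The order of libraries from more embryonic to more adult was compared between the clusters, and the relation did not pass over all 10 libraries. Wild-type 22 and knockout 16 had the lowest adult beta shares and, after knockout 29, the highest zeta shares, while knockout 42 had the highest adult beta share and the second lowest zeta share. Over the 10 libraries, the log2 ratio of zeta to adult alpha and that of adult to embryonic beta had Pearson's r = -0.43 (permutation p = 0.211, adjusted over 5 relations 0.263) and Spearman's rho = -0.64 (permutation p = 0.0532, adjusted 0.0665). Leaving out the 2 libraries farthest from the median zeta ratio, knockout 29 and wild-type 45, gave r = -0.89 over 8. Without knockout 29 alone, r was -0.79 (permutation p = 0.0116, adjusted 0.0145). This relation was added after counts had been seen, and each genotype has too few libraries for a value of its own.

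Levels per length order the genes as follows, in CPM per kilobase of transcript, the knockout mean first and the wild-type mean after it. Hbb-y was at 1669 ± 664 and 1277 ± 646, Hba-x at 386 ± 470 and 136 ± 62.6, Hbb-bs at 240 ± 83.1 and 155 ± 136, and Hba-a1 at 182 ± 113 and 109 ± 49.4 (SD, n = 5 each). Below them were Hbb-bt at 140 ± 66.5 and 89.3 ± 86.0, Hba-a2 at 126 ± 69.2 and 80.7 ± 39.3, and Hbb-bh1 at 30.6 ± 29.5 and 25.5 ± 22. Alas2 and Slc4a1 came last at 13.1 ± 8.92 and 7.61 ± 3.58, and at 11.0 ± 14.7 and 4.05 ± 2.89. In all 10 libraries Hbb-y was above Hba-x, Hba-a2 above Hbb-bh1 and Hbb-bh1 above Alas2. Hba-x was above Hbb-bs in 5 of 10 libraries and Hbb-bt above Hba-a2 in 5 of 10, so these neighbours had no fixed order. Hbb-bs was above Hba-a1 in 8 of 10, Hba-a1 above Hbb-bt in 9 of 10 and Alas2 above Slc4a1 in 9 of 10.

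The shared stretches of the adult copies weigh on these levels. Counted per kilobase of 50-base stretches found in no other gene, the zeta share of alpha-like transcripts averaged 16.2% ± 7.23 in Prdm12-/- libraries, against 12.6% ± 3.13 in Prdm12+/+ libraries. The adult share of beta-like transcripts on that scale was 38.6% ± 10.9 in Prdm12-/- libraries, against 31.7% ± 10.6 in Prdm12+/+ libraries. With 100-base stretches, the zeta share was 23.7% ± 9.23 and 19.1% ± 4.32, and the adult beta share 36.5% ± 10.6 and 29.9% ± 10.2, in knockout and wild type. The order of the genes by mean over all libraries changed as well. Hba-x ranked 2 of 9 per kilobase of transcript, 6 with unique 50-base stretches and 5 with unique 100-base stretches. Hba-a2 ranked 6, 2 and 3 on these scales, while Hbb-y ranked 1 on all 3. Alpha-like over beta-like level was 0.297 ± 0.154 in Prdm12-/- libraries, against 0.220 ± 0.0226 in Prdm12+/+ libraries per kilobase of transcript. Per kilobase of unique 50-base stretches it was 0.650 ± 0.212 and 0.583 ± 0.0760. Knockout 29 held the highest ratio on both scales, at 0.569 per kilobase of transcript. The other knockouts lay at 0.190 to 0.259 per kilobase of transcript, against 0.188 to 0.243 in the wild type. With unique 50-base stretches they lay at 0.485 to 0.628, against 0.481 to 0.682 in the wild type. The level of adult globins set against embryonic globins therefore depends on how shared reads were treated, while knockout 29 had the highest zeta share on all 3 scales.

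Other genes of the red cell lineage did not differ past the threshold either. For the lists below, the shares over all genes tested were 0.467% passing and 13.1% with an unadjusted p under 0.05, with a median log2 fold change of -0.03. Of 10 further heme synthesis genes, including the housekeeping enzyme gene Alas1 at 47.1 ± 3.01 CPM in Prdm12-/- libraries, against 50.5 ± 2.52 CPM in Prdm12+/+ libraries, 0 passed, and 0 had an unadjusted p under 0.05 (median log2 fold change 0.09). Ppox was at 78.9 ± 13.9 and 69.9 ± 19.9 CPM and Fech, which inserts iron into heme, at 54.3 ± 8.97 and 50.9 ± 4.81 CPM. Of 7 iron genes 0 passed (1 with an unadjusted p under 0.05, median 0.11), with the ferritin heavy chain gene Fth1 at 336 ± 91.6 and 272 ± 118 CPM and the transferrin receptor gene Tfrc at 118 ± 47.8 and 141 ± 31.2 CPM in knockout and wild type. These genes are used by many cell types.

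Of 16 tested red cell membrane genes 0 passed (5 with an unadjusted p under 0.05, median 0.61), and 2 others of the list were not tested. The 4 most abundant, Epb41, Add2, Slc2a1 and Ank1, are also used outside red cells. Slc2a1, the glucose transporter of red cells and of brain vessels, was at 150 ± 65.2 CPM in Prdm12-/- libraries, against 62.5 ± 17.5 CPM in Prdm12+/+ libraries (log2 fold change 1.26, SE 0.30, adjusted p = 0.104 by edgeR, 0.00264 by DESeq2). Kel, a blood group antigen gene chosen after its values were seen, was at 17.2 CPM in knockout 29, but at most 4.05 CPM in the remaining 4 mutants, against at most 5.53 CPM in the wild type.

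Of 12 tested genes for red cell enzymes and maturation 0 passed (3 with an unadjusted p under 0.05, median 0.79), among them Prdx2 at 406 ± 45.8 CPM in Prdm12-/- libraries, against 501 ± 88.9 CPM in Prdm12+/+ libraries, and Bpgm at 52.7 ± 29.7 and 45.7 ± 11.0 CPM. Of 15 erythroid transcription factor genes 0 passed (4 with an unadjusted p under 0.05, median 0.26). Tal1, which also marks endothelium, was at 12.2 ± 4.38 and 6.28 ± 1.55 CPM (adjusted p = 0.191 by edgeR, 0.0179 by DESeq2), and Zfpm1, the GATA1 cofactor, at 14.4 ± 3.73 and 8.05 ± 2.55 CPM (adjusted p = 0.210 by edgeR, 0.0280 by DESeq2). The defining factors were low: Gata1 was at 0.355 to 2.99 CPM across Prdm12-/- libraries, against 0.409 to 0.734 CPM across Prdm12+/+ libraries, and Klf1 at 0.384 to 2.6 CPM and 0.242 to 1.40 CPM. A floor of 3 counts is 0.867 CPM for knockout 49, which is the least deeply sequenced, and lies between 0.0888 and 0.236 CPM for the other 9. Of the other globin loci, 2 of the 7 in the files were tested and 0 passed (1 with an unadjusted p under 0.05, median 0.82). The summed level of the 7 was 1.67 to 4.01 CPM across Prdm12-/- libraries, against 1.09 to 1.76 CPM across Prdm12+/+ libraries.

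Markers of vessels, macrophages and platelets had higher mean sums in the knockout but gave no call by edgeR. Over all genes tested, 0.467% passed, 46.3% had a positive fold change and 13.1% had an unadjusted p under 0.05, with a median log2 fold change of -0.03. All 12 endothelial genes had a positive fold change (0 passed, 11 with an unadjusted p under 0.05, median log2 fold change 0.99). Their summed level was 541 to 1299 CPM across Prdm12-/- libraries, against 295 to 677 CPM across Prdm12+/+ libraries. Cldn5, a tight junction gene of brain vessels, was at 56.8 ± 37.3 CPM in Prdm12-/- libraries, against 15.7 ± 9.04 CPM in Prdm12+/+ libraries, without overlap (adjusted p = 0.143 by edgeR, 0.00362 by DESeq2). Of the 12 endothelial genes, 1 had genotypes without overlap, against 4.21% of all genes tested. Knockout 50 held 122 CPM of Cldn5, and the next knockout 51.7 CPM. DESeq2 also called Tie1, Kdr, Flt1, Cdh5 and Esam among the endothelial genes and Clec1b among the platelet genes, but no macrophage gene. Over all genes it called 637 of 18005. The 12 macrophage genes summed to 208 to 391 CPM across Prdm12-/- libraries, against 64.9 to 322 CPM across Prdm12+/+ libraries (0 passed, 2 with an unadjusted p under 0.05, median 0.68), and the 12 platelet and megakaryocyte genes to 22 to 83.6 CPM and 15.3 to 39.2 CPM (0 of 11 tested passed, 5 with an unadjusted p under 0.05, median 1.01). Among 10 granulocyte and mast cell genes 0 of 6 tested passed (2 with an unadjusted p under 0.05, median 0.57). Their summed level was 72.7 to 138 CPM across Prdm12-/- libraries, against 88.2 to 140 CPM across Prdm12+/+ libraries. Wild-type 32 and 35, set apart above, held 64.9 and 73.0 CPM of the macrophage sum, against 173 to 322 CPM in the other wild types. Their endothelial sums were 295 and 379 CPM, with wild-type 24 at 374 CPM. The part of vessels and other blood cells in the globin levels was not tested between genotypes.

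Most pairs of the 9 genes moved together from library to library, with r of 0.68 to 0.99 over the 28 pairs that leave out Hbb-bs. The 8 pairs with Hbb-bs ranged wider, from 0.47 with Hbb-bh1, 0.52 with Hba-x, 0.56 with Slc4a1 and 0.57 with Hbb-y up to 0.96 with Hbb-bt. All of these share the same 10 libraries and are given as a description, and 3 pairs and the endothelial list were tested. Hbb-y with Hbb-bh1 had r = 0.91 (permutation p = 0.00060, adjusted over 5 relations 0.0015) and rho = 0.90 (permutation p = 0.00094, adjusted 0.0028), and r = 0.90 over the 8 libraries left without knockout 29 and wild-type 35, the farthest on Hbb-y. Hbb-y with Alas2 had r = 0.84 (permutation p = 0.0010, adjusted 0.0017) and rho = 0.89 (permutation p = 0.0011, adjusted 0.0028), and r = 0.77 without the same 2. Alas2 with Slc4a1 had r = 0.94 (permutation p = 0.00028, adjusted 0.0014) and rho = 0.83 (permutation p = 0.0051, adjusted 0.0085), and r = 0.83 without knockout 29 and wild-type 32. Hbb-y with the mean log2 CPM of the endothelial list had r = 0.37 (permutation p = 0.291, adjusted 0.291) and rho = 0.39 (permutation p = 0.264, adjusted 0.264), and r = 0.056 without knockout 29 and wild-type 35. Whether r differed between these relations was not tested.

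**Figure D5:**
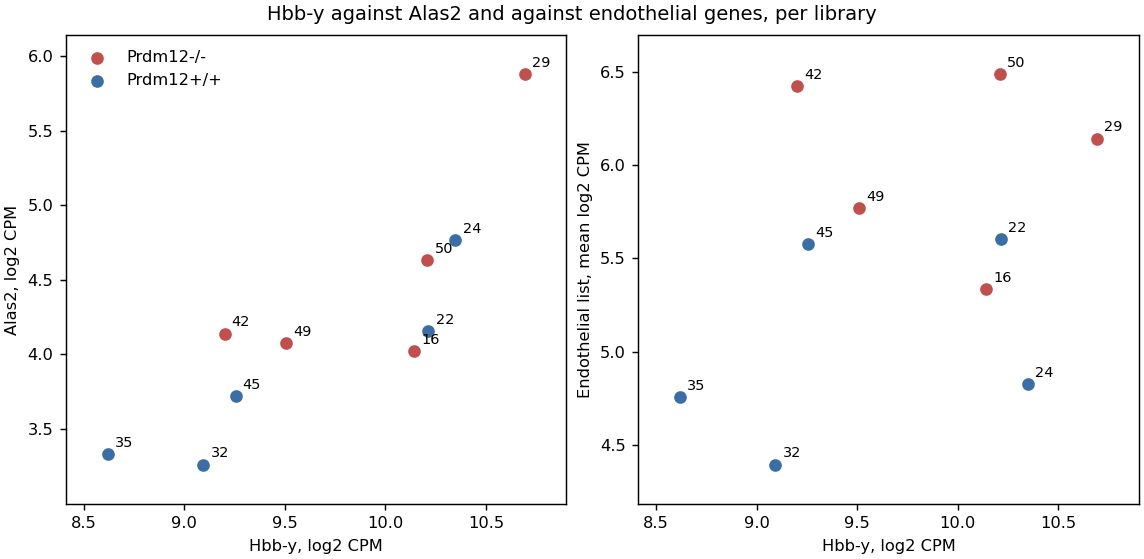
Hbb-y (x axis, log2 CPM) against Alas2 (left panel, log2 CPM) and against the mean log2 CPM of 12 endothelial genes (right panel) in each library, Prdm12-/- in red and Prdm12+/+ in blue. Alas2 rises with Hbb-y over the 10 libraries (r = 0.84), and knockout 42, high in endothelial genes, is low in Hbb-y.

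The genes whose pattern over the 10 libraries was most like that of Alas2 began with Nfe2 (r = 0.98, rho = 0.96), a transcription factor of red cell and platelet precursors, at 9.19 CPM in knockout 29, then 1.45 to 3.04 CPM in the remaining 4 mutants, against 0.830 to 2.78 CPM in the wild type. Next were Hnrnpf, Ier2, Pcbd2 and Slc25a39, a mitochondrial carrier gene, with r of 0.97, 0.97, 0.97 and 0.96, and then Aldh2, Srprb, Rela, Zfp36 and Pfn1 with r of 0.96 each. For Hbb-y the list was led by Irx5, Hdac8, Dab1 and Hsd3b6 with r of 0.93, 0.93, 0.93 and 0.92, followed by Hsd17b4, Dazap2 and Brd7 with r of 0.90 each, then Tnfrsf14, Lmx1a and Ctbp2 with r of 0.88 each. None of these 10 was in a red cell list. Each list was picked as the highest of 18005 genes over 10 libraries and is given as a description.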

How the data were processed

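The deposited files hold raw counts per Ensembl gene, 1 file per library, and per the submitters' processing notes the tools were featureCounts 1.5.0-p1, STAR 2.7.10a and bcl2fastq 2.20.0.422. Of genome builds, mm10 and GRCm39 are both listed, with no role given. No label gives the annotation, the strand setting or the handling of reads that fit several genes. Symbols matched 52081 of 55414 IDs. Libraries of 1 genotype were compared for duplicates, and no pair of 20 had a mean chi-square per gene (genes with at least 200 counts) under 9.88.

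Genes were kept with filterByExpr (minimum count 10), scaled with TMM factors and tested with edgeR 4.0.16 (R 4.3.3) (glmQLFit, then glmQLFTest), p-values being adjusted by Benjamini-Hochberg over 18005 genes. The procedure was tested on simulated data with changes larger than those fitted for the members, so that test does not cover changes of their size. DESeq2 1.42.0 and limma 3.58.1 were alternatives, with other scalings and filters and with each library left out. Shares were compared as log2 ratios of counts, with 0.5 added to each, by exact permutation of the 5 and 5 libraries. Correlations used log2 CPM (prior count 2) and 100000 permutations. Transcripts came from GENCODE M21 and promoters from RefSeq, both GRCm38. The members and lists were chosen with earlier results of these data known. Genes named with values were the members, Prdm12, the 4 most abundant of a list or fewer, some of those called in any analysis, and the 10 most like Hbb-y and Alas2. Among the endothelial genes called by DESeq2, values are given for Cldn5 only. In the sensory neuron list, 1 higher and 1 lower gene passed by edgeR and are not named. Kel, Gata1, Klf1 and the relation of the alpha and beta ratios were chosen after values were seen. Counting intervals cover counting error only.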

Additional observations from a re-analysis of the deposited data

Results flagged for a closer look

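Of 104 groups of 5 libraries examined, 19 had a library far from the other 4. For independent groups of normal values the rule flags about 1 in 20. These groups share libraries and hold genes that move together, and some genes were chosen after values were seen. The 19 can therefore not be set against that rate and are given as a description. Knockout 29 accounted for 12 of the 19. It was far above the other knockout libraries in Hba-x (979 CPM), Hba-a1 (265 CPM), Hbb-bh1 (50.3 CPM), Alas2 (58.7 CPM) and Slc4a1 (170 CPM), in the count of Hba-x relative to Hbb-y (0.592) and in the beta H1 share of embryonic beta-like counts (2.95%). The same held for Nfe2 (9.19 CPM) and Kel (17.2 CPM), and for Ank1 (166 CPM), Ldb1 (559 CPM) and Prdm12 itself (42.7 CPM), genes that other cell types also use.

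Wild-type 24 accounted for 6. It was far above the other wild types in the adult beta globins Hbb-bs (246 CPM) and Hbb-bt (170 CPM), and in Fth1 (483 CPM), Bpgm (65.1 CPM), Snx3 (149 CPM) and Bnip3l (121 CPM). Knockout 50 was far above the other knockouts in Cldn5 (122 CPM).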

How the results depend on the processing

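Of 171 recomputed fold changes of the 9 genes under 19 alternatives, 167 kept their sign and stayed short of the threshold, 1 (Slc4a1 by DESeq2) kept its sign with no p given, and the other 3 were of Hbb-bh1. It was at -0.47 without knockout 29 (the range over single libraries left out was -0.47 to 0.94), at -0.14 without wild-type 32 and 35 and at -0.36 without knockout 29 and 49. The sign of Hbb-bh1 thus depends on which libraries enter. Of the 9 genes 0 were called under any of these alternatives. Without wild-type 24, 7 of 9 had an unadjusted p under 0.05 (18.4% of all genes), against 1 of 9 with all libraries (13.1%). Over all genes, 17 higher and 67 lower genes became 55 and 102 with no filter, 399 and 238 with DESeq2, 0 and 19 without wild-type 32 and 35, and 6 higher without knockout 29 and 49. With each library left out in turn they ranged over 2 to 35 higher and 27 to 88 lower. Other erythroid genes called were 1 with no filter (Slc2a1) and 3 with DESeq2 (Slc2a1, Tal1 and Zfpm1), against 0. With DESeq2, 2 of 62 had no adjusted p. Of 12 endothelial, 12 macrophage and 11 platelet genes tested, 7 were called with DESeq2, against 0. They were Tie1, Kdr, Flt1, Cdh5, Esam and Cldn5 of endothelium and Clec1b of platelets, with no macrophage gene. Over all genes, 157 of 39450 were called with no filter and 637 of 18005 with DESeq2.

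The 3 share differences kept their sign, with no p under 0.05, in every alternative run. With single libraries left out they ranged from 0.073 to 0.53 for zeta, 0.18 to 0.73 for adult beta and -0.48 to -0.0040 for beta H1. The globin share of all counts ranged from 0.147% to 0.199% in the knockout mean and 0.0985% to 0.136% in the wild-type mean. The r of Hbb-y ranged from 0.88 to 0.93 with Hbb-bh1 and from 0.82 to 0.88 with Alas2, and that of Alas2 with Slc4a1 from 0.85 to 0.96. Hbb-y with endothelial genes ranged from 0.20 to 0.56 and turned to -0.18 without wild-type 32 and 35. The relation of the alpha and beta ratios ranged from -0.79 to -0.31 and passed the threshold without knockout 29 only. The causes were not tested. No paired analysis was possible because no replicate number occurs in both genotypes.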
